A study of Mus musculus with 7 samples.

Results

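The genes described here are 9 transcripts of transforming growth factor beta (TGF-beta) and activin signalling in subcutaneous mouse tumours. They comprise the ligand genes Tgfb1, Tgfb2 and Tgfb3, the receptor genes Tgfbr1 and Tgfbr2, the induced matrix gene Tgfbi, the feedback inhibitors Smad7 and Skil, and Inhba, which encodes the activin A subunit. They were chosen by name, each symbol matched 1 Ensembl identifier, and all 9 were found among the 32212 genes of the files. All 9 passed the filter on low values (at least 0.5 FPKM in at least 3 libraries), as did 14838 genes in all.

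The tumours were grown in wild-type C57BL/6J mice injected under the skin, at 6 weeks of age, with the transplantable lung cancer line LLC (Lewis lung carcinoma). The 7 poly(A) RNA libraries comprise 4 from untreated model mice (controls 1 to 4) and 3 from mice that received Ze-qi decoction, a herbal preparation abbreviated ZQD, in its high dose of 42.67 g/kg (ZQD 1 to 3). For tissue collection the labels give both day 21 and day 22. Samples are numbered within a group, but nothing says that each number is a separate mouse, so the spread behind each p-value may be a technical one. The study asks what the decoction does to tumour gene expression.

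Levels are given as FPKM, in which each read count is divided by the gene's length and the library's depth. For the 9 members that length equals all exon bases annotated in GENCODE M21, from 3383 for Tgfb3 to 9694 for Skil. A gene whose expressed transcript is shorter than this has its level understated. Orders, shares and ratios between genes below therefore hold for FPKM only. Fold changes subtract the control mean from the ZQD mean of log2(FPKM + 0.5), a scale that understates changes of low genes. Adjusted p-values are from limma over all 14838 genes tested, with the Benjamini-Hochberg adjustment. The totals were 32065288 to 49914394 reads in controls and 34765330 to 38673663 in ZQD, and every member had at least 264 reads in every library. Mitochondrially encoded genes took 5.18% to 7.96% of the reads in controls and 8.78% to 11.1% in ZQD. Because FPKM are shares of a library, that difference touches every value below, and values scaled without those genes are given where they change an overlap or a sign, and for Smad7 and Tgfb3.

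TGF-beta ligands are made as dimers that stay bound to their own propeptide, tethered to the matrix by latent TGF-beta binding proteins, until integrins, thrombospondin or proteases release them. The released ligand joins the type II receptor Tgfbr2 to the type I receptor Tgfbr1, which phosphorylates Smad2 and Smad3. These enter the nucleus with Smad4 and induce matrix genes along with the inhibitors Smad7 and Skil, which close a negative feedback loop. Activin, a dimer of the Inhba product, uses its own receptors but the same Smads, and is held back by follistatin. In tumours, tumour cells, macrophages, fibroblasts and platelets can all supply these ligands, and the pathway is known for restraining T cells and remodelling stroma.

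No member passed the adjusted threshold. Of the 9 genes, 7 had a lower mean log2 level in ZQD and 2 a higher one, with a median log2 fold change of -0.18 beside -0.043 over all genes tested. Without control 1 these medians were -0.076 and -0.038. Smad7 alone had every ZQD library below every control. At an unadjusted p under 0.05 stood 2 members, Smad7 and Tgfb3, both lower in ZQD. The threshold of an adjusted p under 0.05 was passed by 0 genes of the whole table in limma (0%), while 15.5% of all genes tested had an unadjusted p under 0.05 and 10.3% had one with a lower level in ZQD. Where all ZQD libraries lay below all controls, the share over all genes was 9.84%. With so few members, 2 of 9 cannot be read as a departure from that background. The count was 1 without control 1, control 3 or ZQD 2, and in each case Tgfb3 was the gene that no longer counted. It was also replaced by Tgfbr2 without control 2 and by Tgfb1 without ZQD 3, while Smad7 counted with any 1 library left out. With edgeR on the rebuilt reads 0 genes were called (0%), and 15% had an unadjusted p under 0.05. DESeq2 called 4.13% of the genes to which it gave an adjusted p (1.83% as lower and 2.3% as higher in ZQD), none of them a member.

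**Figure D1:**
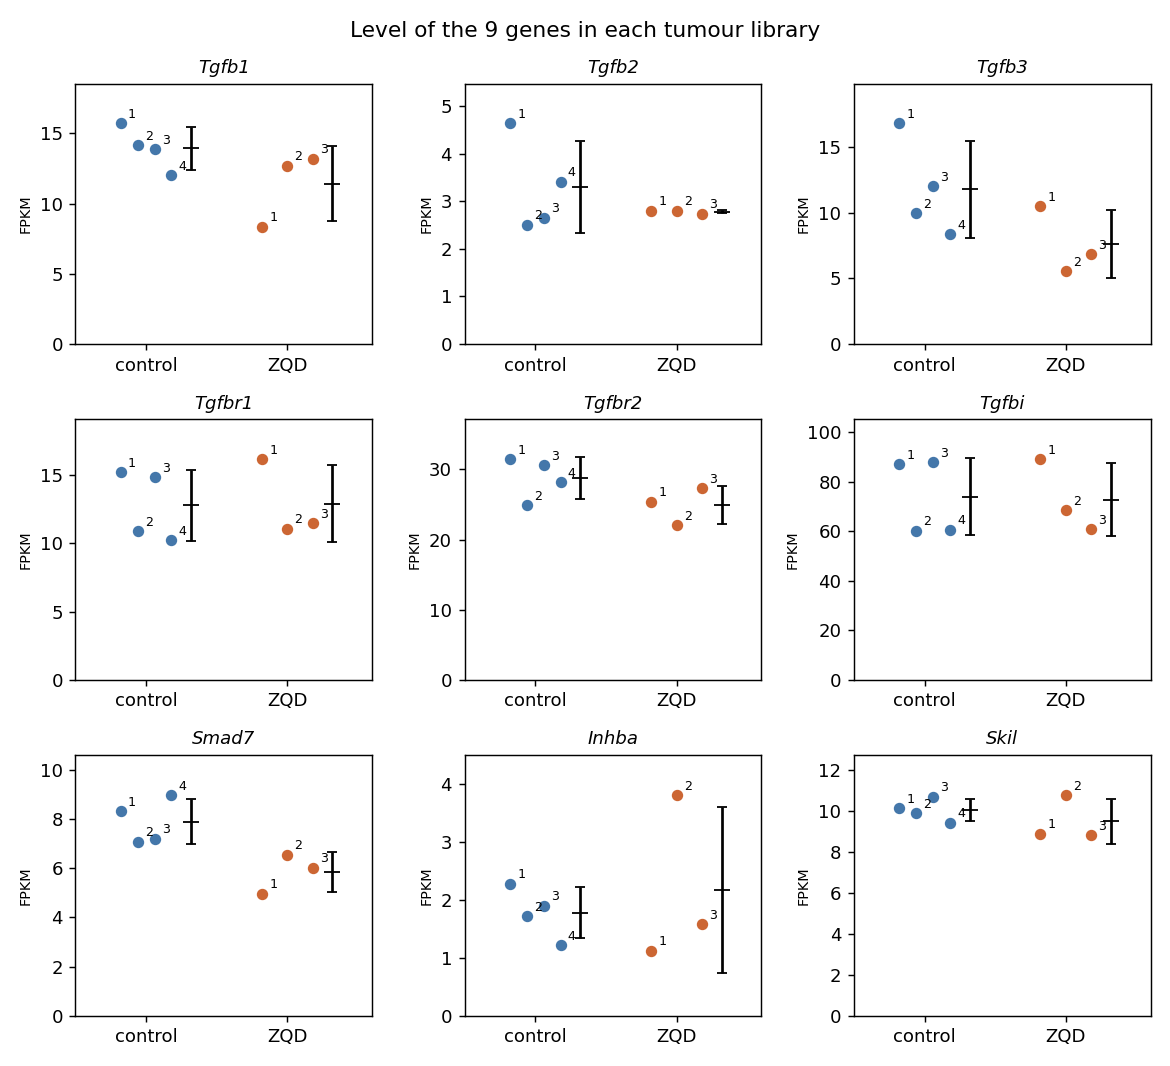
Each panel plots the FPKM of 1 gene (linear axis from 0) in the 4 control and 3 ZQD libraries, numbered by replicate, with the group mean and SD as a bar at the right. Smad7 is the only panel whose ZQD points all sit below the controls, and Inhba has 1 ZQD library, number 2, at 3.82 FPKM.

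The ordering by mean level over the 7 libraries put Tgfbi first at 73.5 FPKM. Tgfbr2 followed at 27.1, then Tgfb1 at 12.9, Tgfbr1 at 12.8, Tgfb3 at 10.005, Skil at 9.81, Smad7 at 7.03, Tgfb2 at 3.08 and Inhba at 1.95 FPKM. Tgfbi lay above Tgfbr2, Tgfbr2 above Tgfb1, Skil above Smad7 and Smad7 above Tgfb2 in 7 of 7 libraries. The neighbours Tgfb1 and Tgfbr1 kept their order in only 5 libraries, and Tgfb3 and Skil in 4, so these pairs did not differ beyond their spread. Tgfbr1 exceeded Tgfb3, and Tgfb2 exceeded Inhba, in 6 of 7. In each of the 7 libraries the matrix gene and the type II receptor thus had more FPKM than any of the ligand genes.

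Tgfb1 (ENSMUSG00000002603), an isoform made by leukocytes and platelets among other cells, was at 15.7, 14.2, 13.9 and 12.0 FPKM across controls 1 to 4, with 8.35, 12.7 and 13.2 across ZQD 1 to 3. ZQD 1 lay below every control and the other two lay within their range. The means were 13.9 ± 1.51 (SD, n = 4) and 11.4 ± 2.66 (SD, n = 3), a log2 fold change of -0.30 (95% interval -0.67 to 0.073, limma adjusted p = 0.41). Without ZQD 1 the log2 fold change was -0.097. In bulk tissue a smaller number of cells that make a transcript and less transcript per cell cannot be told apart, here and for each gene below.

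Tgfb3 (ENSMUSG00000021253), an isoform often made by mesenchymal cells, was at 16.8, 9.96, 12.0 and 8.36 FPKM across controls 1 to 4, with 10.5, 5.53 and 6.83 across ZQD 1 to 3. ZQD 2 and ZQD 3 lay below all controls, while ZQD 1 lay above controls 2 and 4. Its means of 11.8 ± 3.67 (SD, n = 4) and 7.62 ± 2.58 (SD, n = 3) gave a log2 fold change of -0.60, the most negative of the 9 members in limma (SE 0.26, unadjusted p = 0.0484, adjusted p = 0.319). The two-sided exact permutation test over libraries gave p = 0.143. Leaving out 1 library moved the value between -0.84 (without ZQD 1) and -0.41 (without ZQD 2), and scaling without mitochondrially encoded genes gave -0.55.

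Tgfb2 (ENSMUSG00000039239), the lowest of these ligand genes in mean FPKM, was at 4.64, 2.51, 2.65 and 3.41 FPKM in the controls. In ZQD it was at 2.81, 2.81 and 2.74, all inside the control range and with an SD of only 0.0377 (n = 3). The log2 fold change was -0.18 (95% interval -0.60 to 0.24), and -0.023 without control 1, the library with the highest level. Exons of Tgfb2 and Tgfb3 overlap opposite-strand genes in GENCODE M21 by 124 bases and by 163 and 257 bases. The overlapping genes Gm29491, Gm37804 and Gm48008 averaged 0.0143, 0.263 and 0.0678 FPKM, and the sources used here do not say whether the counting used strand.

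Summed over the 3 ligand genes, the level was 37.2, 26.6, 28.5 and 23.8 FPKM across controls 1 to 4, with 21.7, 21.0 and 22.8 across ZQD 1 to 3. All ZQD libraries lay below all controls in this sum, which is given as a description with no test. Scaled without mitochondrially encoded genes, the gap was narrow (control 4 at 23.04, ZQD 3 at 22.91). For each ligand gene alone the groups overlapped. The share of each gene in the sum overlapped between the groups. Tgfb1 made up 42.3% to 53.2% of it in controls, and 38.6%, 60.4% and 58.0% in ZQD 1 to 3. Tgfb3 made up 35.1% to 45.2% in controls, and 48.5%, 26.3% and 30.0% in ZQD. ZQD 1 was thus the library with the least Tgfb1 and the most Tgfb3 among the treated tumours, and similar low sums came from different ligands. Each of the 3 ligands had a negative log2 fold change under every scaling and with each library left out.

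**Figure D2:**
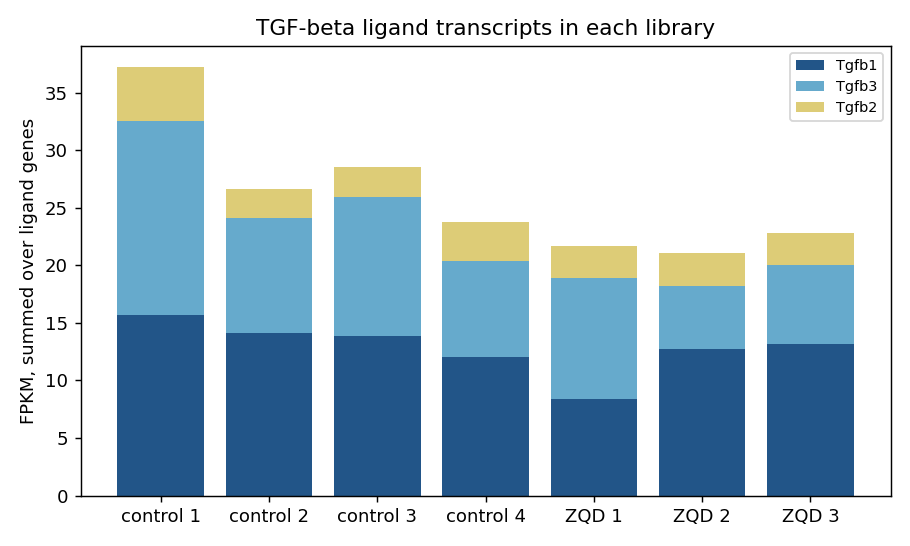
Bars stack the FPKM of Tgfb1, Tgfb3 and Tgfb2 (linear axis from 0) in each of the 7 libraries. The 3 ZQD bars reach 21.0 to 22.8 FPKM, below the lowest control at 23.8, and ZQD 1 has the smallest Tgfb1 segment at 8.35.

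Tgfbr2 (ENSMUSG00000032440), the ligand-binding type II receptor, was at 31.4, 24.9, 30.6 and 28.2 FPKM across controls 1 to 4, with 25.4, 22.0 and 27.3 across ZQD 1 to 3. ZQD 2 lay below every control, and the other two within their range. The means were 28.8 ± 2.93 (SD, n = 4) and 24.9 ± 2.67 (SD, n = 3), a log2 fold change of -0.20 (95% interval -0.46 to 0.049, limma adjusted p = 0.407).

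Tgfbr1 (ENSMUSG00000007613), the signalling type I kinase, was at 15.2, 10.9, 14.8 and 10.2 FPKM across controls 1 to 4, with 16.2, 11.1 and 11.5 across ZQD 1 to 3. Its group means of 12.8 ± 2.60 (SD, n = 4) and 12.9 ± 2.84 (SD, n = 3) nearly coincided, with a log2 fold change of 0.013. The 95% interval ran from -0.40 to 0.43, so a change of that size in either direction is not excluded. The sign of the value was negative on the TPM scale (-0.088). Tgfbr2 exceeded Tgfbr1 in all 7 libraries, by a ratio of 2.06 to 2.76 in controls and of 1.57, 1.99 and 2.38 in ZQD.

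Tgfbi (ENSMUSG00000035493) encodes a secreted matrix adaptor that TGF-beta induces and that macrophages also make. It was at 87.2, 60.2, 87.9 and 60.7 FPKM across controls 1 to 4, with 89.2, 68.5 and 60.9 across ZQD 1 to 3. Control 1, control 3 and ZQD 1 stood near one level and the other 4 libraries near a lower one, with both groups represented in each. The means were 74.0 ± 15.6 (SD, n = 4) and 72.9 ± 14.6 (SD, n = 3), a log2 fold change of -0.016 (95% interval -0.44 to 0.41) whose sign turned under median-of-ratios scaling (0.015), TMM scaling (0.0013) and scaling without mitochondrially encoded genes (0.038). The ratio of Tgfbi to Tgfb1 was 4.25 to 6.34 in controls and 10.7, 5.40 and 4.61 in ZQD. Tgfbi was thus highest of the 7 libraries in ZQD 1, where Tgfb1 was lowest.

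Tgfbr1 stood high in the same 3 libraries as Tgfbi, at 14.8 to 16.2 FPKM against 10.2 to 11.5 in the other 4. By the Pearson correlation of log2 levels over the 7 libraries, Tgfbr1 was the third most similar of 7226 other genes with a mean of at least 5 FPKM to Tgfbi, after Hbp1, a transcriptional repressor, and Acbd4. The coefficient of Tgfbr1 with Tgfbi was 0.96, which describes the division of the libraries into these 3 and 4. Of the 36 pairs of members, this was the only one with a coefficient above 0.9. Their upstream sequences are shown because these 2 members varied together. They are the 250 bases before the start of each gene in RefSeq (GRCm38.p6, plus strand, chr4:47352972-47353221 and chr13:56609336-56609585). Capitals mark the SMAD half-site (CAGAC, or GTCTG on the other strand) and the GC box (GGGCGG, or CCGCCC on the other strand), and 0 bases of these windows lie in both motifs.
Tgfbr1: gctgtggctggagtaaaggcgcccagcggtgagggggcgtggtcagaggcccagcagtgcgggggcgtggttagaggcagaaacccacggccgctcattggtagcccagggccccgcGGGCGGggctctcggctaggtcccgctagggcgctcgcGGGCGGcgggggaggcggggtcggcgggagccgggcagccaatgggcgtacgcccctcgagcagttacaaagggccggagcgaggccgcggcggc
Tgfbi: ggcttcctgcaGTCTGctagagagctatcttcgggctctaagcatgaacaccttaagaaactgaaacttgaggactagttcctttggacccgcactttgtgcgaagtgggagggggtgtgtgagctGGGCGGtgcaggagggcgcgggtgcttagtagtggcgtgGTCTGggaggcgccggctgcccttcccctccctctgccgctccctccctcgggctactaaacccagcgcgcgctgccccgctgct

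The Tgfbi window held 2 SMAD half-sites and 1 GC box, and the printed Tgfbr1 window 0 half-sites and 2 GC boxes. RefSeq lists a second start of Tgfbr1, whose window had 1 half-site and 0 GC boxes. A half-site occurs in 42.2% and a GC box in 32.7% of the 32851 windows of this length, so a match is common and only describes the letters. Windows were examined for 6 of the 9 members, not for Tgfb3, Smad7 or Skil. Among the others of these 6, Tgfb1 had 5 GC boxes, Tgfb2 2 half-sites, Tgfbr2 1 half-site, and Inhba neither. The AP-1 site TGANTCA, present in 6.75% of windows, was in none of the windows of these 6 members. GC content was 74.8% for the printed Tgfbr1 window and 62.4% for Tgfbi, against 43.2% for Inhba.

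**Figure D3:**
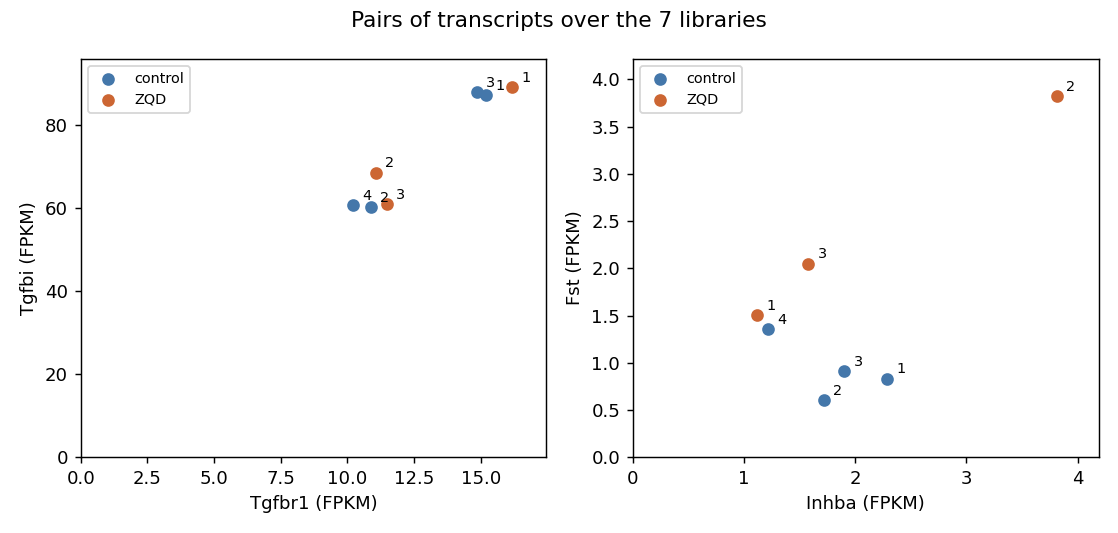
Each point is 1 library, numbered by replicate, on linear FPKM axes from 0. At left, control 1, control 3 and ZQD 1 sit together at 87.2 to 89.2 FPKM of Tgfbi. At right, the 3 ZQD libraries have at least 1.501 FPKM of Fst and the controls at most 1.36, and ZQD 2 is highest on both axes.

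Smad7 (ENSMUSG00000025880), an inhibitory Smad that binds the type I receptor and recruits Smurf ubiquitin ligases, was at 8.34, 7.09, 7.20 and 8.99 FPKM across controls 1 to 4, with 4.96, 6.57 and 6.03 across ZQD 1 to 3. Every treated library lay below every control, and ZQD 1, with the least Tgfb1, also had the least Smad7. The means were 7.91 ± 0.917 (SD, n = 4) and 5.85 ± 0.816 (SD, n = 3), so that the log2 fold change was -0.41 (SE 0.12, limma unadjusted p = 0.0107, adjusted p = 0.212). The exact permutation test gave p = 0.0286, the smallest that 4 against 3 libraries allow. Its value ran from -0.49 to -0.30 with 1 library left out and was -0.36 when scaled without mitochondrially encoded genes. DESeq2 did not call it either (adjusted p = 0.126).

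Skil (ENSMUSG00000027660), the SnoN corepressor that binds Smads and is induced by them, was at 10.1, 9.89, 10.7 and 9.44 FPKM in controls. In ZQD it was at 8.89, 10.8 and 8.81, so ZQD 2 was above all controls and the other two below all of them. The means were 10.04 ± 0.529 (SD, n = 4) and 9.50 ± 1.12 (SD, n = 3), and the log2 fold change was -0.081 (95% interval -0.30 to 0.14, limma adjusted p = 0.722). Both feedback genes thus had negative values, but the difference between their fold changes was not tested.

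Inhba (ENSMUSG00000041324) was at 2.29, 1.72, 1.90 and 1.22 FPKM across controls 1 to 4, with 1.12, 3.82 and 1.58 across ZQD 1 to 3. The ZQD libraries included the lowest and the highest value of all 7, with means of 1.78 ± 0.445 (SD, n = 4) and 2.17 ± 1.44 (SD, n = 3). The log2 fold change was 0.12 (95% interval -0.61 to 0.85, limma adjusted p = 0.884), and ZQD 2 decided its sign: it was -0.29 without that library and 0.42 without ZQD 1. Without control 4 it was -0.0093. In ZQD 2 the summed platelet markers (78.7 FPKM against 8.96 to 15.2 in the other libraries) and fibroblast markers (259.0 against 41.9 to 152.3) were also highest, as were the summed macrophage, neutrophil and endothelial markers. The platelet sum rested on Pf4 (57.1 FPKM in ZQD 2) and Ppbp (20.7), while the platelet receptor genes Itga2b, Gp9, Gp1ba and Gp5 were at 0.346, 0.235, 0.343 and 0.0471 FPKM there and at up to 0.558, 0.364, 0.482 and 0.182 in controls. Of the fibroblast markers, Col1a1 (85.8 FPKM), Col3a1 (68.1), Col1a2 (28.3), Thy1 and Pdpn were highest in ZQD 2. In contrast, Pdgfra, Pdgfrb, Dcn, Lum and Fap were highest in control 1, at 8.51, 7.45, 23.7, 9.75 and 0.467 FPKM. The part of these cell types in the Inhba value was not tested.

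**Figure D4:**
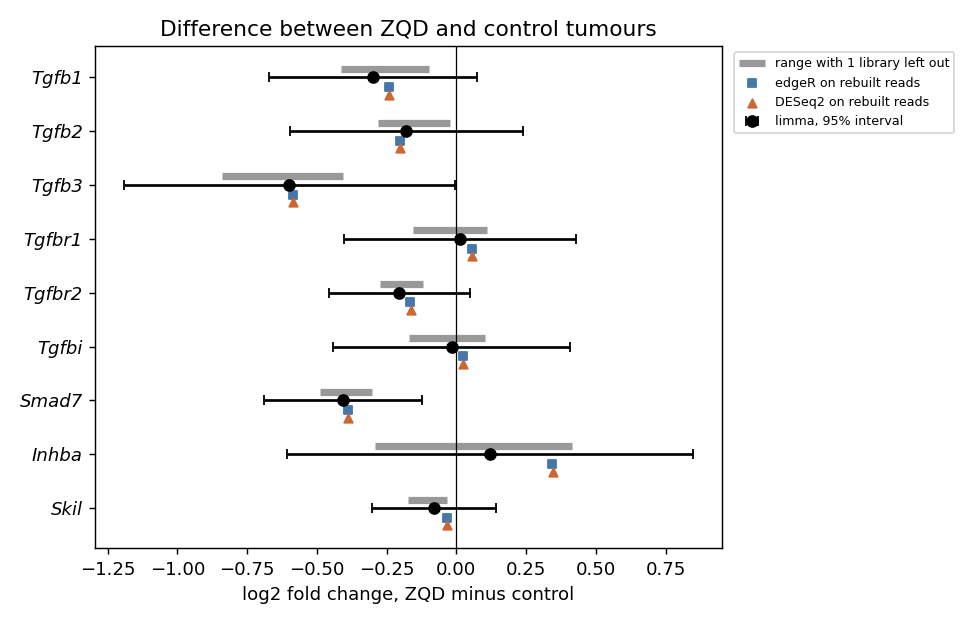
Black points give the limma log2 fold change of each member (ZQD minus control) with its 95% interval, grey bars the range with 1 library left out, and squares and triangles the edgeR and DESeq2 values on rebuilt reads. The interval lies wholly below 0 for Smad7 and, narrowly, for Tgfb3, and the grey bar crosses 0 for Tgfbr1, Tgfbi and Inhba.

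The genes whose pattern over the 7 libraries was most like that of Tgfb1 were Zfp462 (Pearson r = 0.98), Tram2 (0.98) and Srrm2 (0.97), each lowest in ZQD 1. For Inhba they were Col5a3 (0.94), a fibrillar collagen chain, Zeb2 (0.93), a transcription factor, and Cpeb4 (0.92), each highest in ZQD 2. These coefficients describe 7 points that share 1 extreme library and were the best of 7226 genes, so no p is attached.

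The rest of the pathway was read from lists of ligands, receptors, latency proteins, transducers, inhibitors and targets. Beyond the 9 members they hold 76 genes, 67 of which passed the filter. Of these 67, 43 were lower in ZQD and 24 higher (median log2 fold change -0.14), beside 58.2% lower over all genes tested. At an unadjusted p under 0.05 there were 10 lower and 2 higher (background 10.3% and 5.21%), and groups did not overlap for 10 lower and 1 higher (background 9.84% and 5.35%). Scaled without mitochondrially encoded genes, the groups did not overlap for 5 lower and 2 higher (background 6.7% and 7.62%), and on the TPM scale for 18 lower and 0 higher (background 17.9% and 2.51%). In limma 0 passed the adjusted threshold. DESeq2 called 5 of them, Eng, Ltbp4, Fn1 and Junb as lower and Fst as higher, where 1.83% (lower) and 2.3% (higher) of the genes with a DESeq2 adjusted p were called. The count of 43 lower genes was 51 on the TPM scale and 39 with median-of-ratios scaling.

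Among receptors, Eng, which encodes the co-receptor endoglin, was at 46.3, 42.1, 39.3 and 45.5 FPKM across controls 1 to 4, with 31.4, 31.5 and 34.0 across ZQD 1 to 3. Every treated library lay below every control (log2 fold change -0.41, SE 0.0855, limma adjusted p = 0.154, DESeq2 adjusted p = 0.00827). Endoglin is best known from endothelium and is also made by macrophages. All 7 tested endothelial markers had higher means in ZQD, none at an unadjusted p under 0.05 in limma. Their summed levels were 18.3 to 31.0 FPKM for controls against 19.5 (ZQD 1) to 38.8 (ZQD 2) for ZQD. With 1 library left out, the log2 fold change fell as low as -0.11 for Pecam1, -0.065 for Cdh5 and -0.20 for Kdr. Those of Tie1, Emcn, Vwf and Cldn5 stayed positive. The part of endothelial cells in the Eng value was not tested. Tgfbr3, the co-receptor betaglycan, had a log2 fold change of -0.20.

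Of 13 tested genes of latency and activation, 10 were lower. The latent TGF-beta binding proteins Ltbp3 and Ltbp4, which hold the inactive ligand in the matrix, had non-overlapping groups at the deposited FPKM. Ltbp4 was at 18.6, 11.8, 13.4 and 14.0 FPKM across controls 1 to 4, with 8.30, 9.79 and 10.7 across ZQD 1 to 3 (log2 fold change -0.55, limma adjusted p = 0.192, DESeq2 adjusted p = 0.0352). Ltbp3 was at 21.7 ± 2.56 (SD, n = 4) against 16.03 ± 1.78 (SD, n = 3) FPKM. Ltbp1, named after its values were seen, was at 50.7 against 37.9 with groups that did not overlap. Scaled without mitochondrially encoded genes, the groups of Ltbp4 stayed apart, while those of Ltbp3 (lowest control 18.1, highest ZQD 18.6) and Ltbp1 (41.2 and 41.8) overlapped. The integrin subunit Itgb1 (log2 fold change -0.16) and thrombospondin Thbs1 (-0.16) were the most abundant of the list, and the Thbs1 value was 0.045 without ZQD 1 and -0.50 without ZQD 2.

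The activin side was split at its antagonists. Fst, which encodes follistatin, a soluble trap of activin, was at 0.8295, 0.606, 0.911 and 1.36 FPKM across controls 1 to 4, with 1.501, 3.82 and 2.05 across ZQD 1 to 3. All treated libraries lay above all controls, except on the TPM scale (lowest ZQD library 4.595 TPM, highest control 4.64 TPM), and the log2 fold change was 1.00 (SE 0.28; limma adjusted p = 0.186, DESeq2 adjusted p = 0.00241) that was 0.69 to 1.24 with 1 library left out. Fstl3, a follistatin-like antagonist of the same ligands, was at 5.36 ± 0.828 (SD, n = 4) against 3.52 ± 0.646 (SD, n = 3) FPKM, all ZQD libraries being below all controls (-0.55, limma adjusted p = 0.189). The follistatin-like Fstl1, the most abundant gene of the antagonist list, had a log2 fold change of -0.18, and whether it traps activin was not examined. The other subunits Inhbb and Inha had 0.36 (0.087 without ZQD 2, 0.20 without control 1) and -0.43, and the receptors Acvr1b, Acvr1, Acvr2b and Acvr2a had -0.030, -0.094, -0.33 and 0.15, none past the threshold. Scaled without mitochondrially encoded genes, Acvr1b was at 0.023. DESeq2 gave no adjusted p for Inha.

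The Smad transducers Smad2, Smad3 and Smad4 had log2 fold changes of -0.071, -0.32 and -0.15. Left-out libraries moved them to -0.032 for Smad2 and -0.093 for Smad4 (both without ZQD 2) and to -0.17 for Smad3 (without ZQD 1). Among inhibitors, Smad7 and Skil included, 7 of 9 tested were lower. Smurf1, the ubiquitin ligase that Smad7 recruits, was at 25.1 ± 2.67 (SD, n = 4) against 21.0 ± 1.92 (SD, n = 3) FPKM, and the corepressor Tgif1 at 39.7 ± 2.58 against 34.2 ± 3.38. Their groups did not overlap at the deposited FPKM, but did when scaled without mitochondrially encoded genes (Smurf1 lowest control 23.04, highest ZQD 23.2; Tgif1 36.8 and 37.1). Ski, the corepressor related to Skil, was at 32.7 against 32.9 FPKM.

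TGF-beta induced genes did not share one direction, with 9 of 20 tested higher and 11 lower (median -0.021). Fn1, the matrix protein fibronectin, was at 886.9, 538.8, 707.0 and 560.1 FPKM across controls 1 to 4, with 419.3, 404.7 and 491.0 across ZQD 1 to 3 (log2 fold change -0.59, limma adjusted p = 0.21, DESeq2 adjusted p = 0.0292). Junb, an immediate early factor, had -0.74 and Tpm1, a tropomyosin, -0.17. The difference between the fold changes of Fn1 and Tgfbi was not tested. BMP genes were counted as the neighbouring branch: Bmpr1a, Bmp4 and Bmp6 had log2 fold changes of -0.13, -0.11 and -0.32, and DESeq2 gave no adjusted p for Bmp6. The stress-induced Gdf15, placed in the same list though not itself a BMP, had -0.80. The BMP targets Id1, Id2 and Id3 had 0.84, 0.040 and 0.15, and Id2 was at -0.062 on the TPM scale. Id1 was at 5.47, 5.79, 6.99 and 15.7 FPKM across controls 1 to 4, with 14.1, 13.7 and 14.8 across ZQD 1 to 3, so control 4 lay above the treated libraries.

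**Figure D5:**
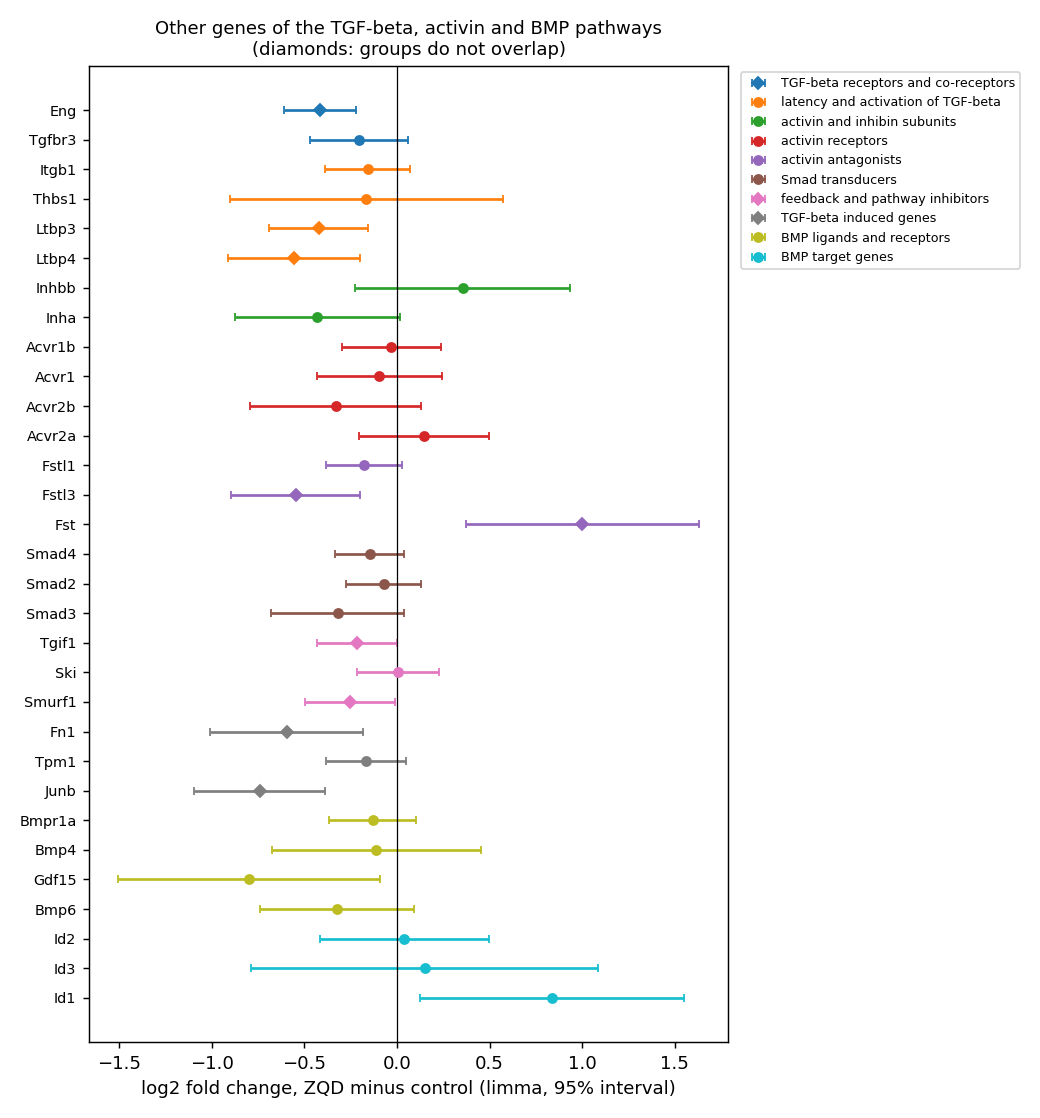
Points give the limma log2 fold change (ZQD minus control) and 95% interval of the 31 further pathway genes, coloured by list, with diamonds where the groups do not overlap at the deposited FPKM. Fst, at 1.00, is the diamond to the right of 0, and those of Eng, Ltbp3, Ltbp4, Fstl3, Tgif1, Smurf1, Fn1 and Junb lie to the left.

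Cell type markers were summed per library, and limma called 0 of them at an adjusted p under 0.05. At an unadjusted p under 0.05 stood 6 of the 12 tested macrophage and monocyte markers, all higher in ZQD (background 5.21%). DESeq2 called 3 of these, Lyz2, Cd14 and Folr2, where 2.3% of the genes with a DESeq2 adjusted p were called as higher. The counts of higher markers below stand beside 58.2% of all genes tested being lower in ZQD. Macrophage and monocyte markers had higher means for 11 of 12 tested, with summed levels of 850.0 to 1213 FPKM for controls against 1220 to 1571 for ZQD. The groups thus did not overlap at the deposited FPKM, but only by the narrow gap between control 3 (1212.5) and ZQD 1 (1220.4). The TPM scale lowers ZQD 1 relative to control 3 by more than this gap, so the groups overlap on that scale. Fibroblast markers ran from 41.9 to 152.3 FPKM for controls against 57.2 to 259.0 for ZQD (7 of 9 higher). Of those 7, Dcn (10.5 FPKM in controls, 9.94 in ZQD) and Lum (4.19 and 3.51) had a lower mean FPKM in ZQD. Their edgeR log2 fold changes were also negative (-0.021 and -0.19). T cell markers ran from 16.3 to 28.7 and from 23.6 to 34.6 (7 of 7 higher), and neutrophil markers from 29.8 to 67.3 and from 45.3 to 107.8 (6 of 7 higher). Platelet markers ran from 8.96 to 14.3 and from 10.3 to 78.7 (2 of 2 tested higher). The 4 platelet markers too low to be tested had a lower mean FPKM in ZQD. Adipocyte markers ran from 2.17 to 5.63 and from 2.44 to 46.6 FPKM (1 of 1 higher, ZQD 1 highest). Skeletal muscle markers ran from 2.16 to 29.4 and from 2.90 to 9.97 (3 of 4 higher by mean log2 level, control 1 highest). In mean FPKM all 4, Acta1, Tnnt3, Tnni2 and Mylpf, were lower in ZQD, with Acta1 at 2.72 in controls and 1.91 in ZQD. The edgeR log2 fold changes of these 4 were also negative (-0.48, -0.079, -0.20 and -0.19). Of the epithelial markers, Krt8, Krt18 and Epcam did not pass the filter (means of at most 0.328 FPKM in either group), where the labels give tumour cell as the cell type, and Krt19 was at 18.1 FPKM in controls against 14.5 in ZQD. No marker of any list was at 0 in all libraries. Whether these cell types account for part of any value above was not tested.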

How the data were processed

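The authors deposited FPKM for each of the 7 libraries, and for controls 1 and 2 also raw counts. HISAT2, featureCounts, Subread and DESeq2 are named, per the submitters' processing notes; their versions and roles, the genome build, the annotation and whether counting used strand: not given in the sources used here. Groups follow the sample titles. In the 2 libraries with counts, deposited FPKM equal count over length and total, which gave a length for 27421 of 32212 genes. Reads rebuilt with it were whole (within 0.05) for 100% of genes in the other 5 libraries. In a gene of 1 kb, 1 read made 0.020 to 0.031 FPKM, and intervals from reads cover counting error only. Symbols came from a gene name table (98.0% matched).

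The main test was limma 3.58.1 (trend, two-sided) on log2(FPKM + 0.5) for 14838 genes, run in R 4.3.3. As alternatives, the rebuilt reads of 14832 genes went through edgeR 4.0.16 (quasi-likelihood) and through DESeq2 1.42.0, and DESeq2 gave no adjusted p for 2307. Others changed pseudocount, filter, scaling, weights, trend, replicate block and left-out library. The tests were tried on simulated reads of the ZQD and control libraries (14832 genes). Every gene had the same dispersion of 0.03, and the altered genes were drawn from the better covered ones. Genes with more spread and changes as small as those of the members were not simulated. At a log2 change of 1, limma found 78%, edgeR 95% and DESeq2 96% of the altered genes, and at 2 each found 100%. Of 14632 unaltered genes, limma called 19, edgeR 11 and DESeq2 30. Members and lists were chosen with earlier results of these data known. Beside the members, the genes named are, per list, the 2 most abundant and the 2 of smallest p, and for Tgfb1, Tgfbi and Inhba the 3 most similar genes. Figures used matplotlib 3.10.9 in Python 3.11.15.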

Additional observations from a re-analysis of the deposited data

Results flagged for a closer look

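Of 40 genes checked for a control library that stands apart from the other 3, 1 was found, where chance marks about 1 in 20. Id1, a target of the BMP branch, was at 15.7 FPKM in control 4 and between 5.47 and 6.99 in the other controls.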

How the results depend on the processing

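All 9 members stayed short of the adjusted threshold in each of the 20 alternatives, and Tgfb1, Tgfb2, Tgfb3, Tgfbr2, Smad7 and Skil kept a negative log2 fold change throughout (Smad7 -0.53 to -0.30, Tgfb3 -0.84 to -0.41). Signs turned for 3 members whose values lie near 0, and the cause was not tested. Tgfbr1 was at -0.088 on the TPM scale and -0.096 with library weights. Tgfbi was at 0.015 with median-of-ratios scaling, 0.0013 with TMM, 0.038 without mitochondrially encoded genes, 0.0228 in edgeR and 0.0225 in DESeq2. With 1 library left out, Tgfbr1 ran from -0.15 to 0.11, Tgfbi from -0.17 to 0.10 and Inhba from -0.29 to 0.42. The number of members at an unadjusted p under 0.05 was 4 on the TPM scale, 1 with no filter, with median-of-ratios scaling, without mitochondrially encoded genes and without the trend, and 1 to 2 with 1 library left out. Genes called over the whole table numbered 517 in DESeq2 (288 higher, 229 lower). The median log2 fold change of all genes was -0.15 on the TPM scale in place of -0.043. Of genes at an unadjusted p under 0.05, 66.5% were lower in ZQD, against 88.4% on the TPM scale, 53.5% with median-of-ratios scaling and 47.6% without mitochondrially encoded genes.

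The replicate number as a block called 1 gene, which is not a member, and left 1 member, Tgfb3, at an unadjusted p under 0.05. It gave -0.083 for Tgfbr1 and -0.0093 for Inhba, the values without control 4, which has no partner. Same-numbered libraries correlated at 0.25, 0.0998 and -0.15 in their deviations from the group means. Differently numbered pairs ran from -0.30 (control 2 with ZQD 1) to 0.26 (control 3 with ZQD 1). These correlations cannot decide whether same-numbered libraries shared handling, and the titles do not say so.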
